A study of Mus musculus with 6 samples.

Results

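Homeobox, paired box and T-box genes encode transcription factors that lay out the body plan, and 67 of the 52957 regions in the ATAC-seq table carried the symbol of such a gene. Regions were taken by symbol alone for the families Hox, Meis, Pbx, Irx, Lhx, the sine oculis homeobox genes (Six4 and Six5 among them), Dlx, Msx, Prrx, Pitx, Pax, Tbx, Shox, Alx and Tlx and the RNA genes Hotair and Hottip. The 67 regions were annotated to 43 symbols on 13 chromosomes, and 36 of them lay within 1 kb of the annotated start site, here called promoter regions, against 31 distal ones. They were 162 to 2097 bp wide, with a median of 641 bp against 448 bp over the whole table.

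ATAC-seq reads pile up where the transposase Tn5 can reach the DNA, so the read total of a region measures how open its chromatin is. All 6 libraries came from NIH3T3, an immortal line of mouse fibroblasts, and every cell line carried a T3H48 hammerhead ribozyme inserted by knock-in into intron 3 of Actg1, which encodes cytoplasmic gamma-actin. In 3 libraries the ribozyme was active, built to cleave the pre-mRNA it sits in, and in the other 3 it was inactive, so the control carries the insertion too. Neither an unedited line nor the number of lines behind each group is given in the sources used here. Ribozyme activity and the identity of a line cannot be told apart, and p-values reflect library-to-library spread only, possibly a technical one.

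The column totals lay between 6433944 and 6548535 normalised reads. Values in active replicates 1 and 2 skipped 10 and 26 of the whole numbers under 60, which marks columns that were scaled up and rest on fewer reads. Of 20 fibroblast marker genes 15 had a region, and 2 of their 15 promoter regions rose and 12 fell with the active ribozyme (limma, as below), where 22.4% of all promoter regions rose and 36.6% fell. The summed fibroblast promoters were at 3564 to 3726 in active libraries and 4594 to 4836 in inactive ones, while Lum, Dcn, Postn, Tcf21 and Fap, also fibroblast markers, had no region. Of the endothelial markers Kdr alone had a region, with 74 to 82 against 5 to 9 normalised reads at its promoter, and of the pluripotency markers Nanog alone had one, with none at its promoter. Of the immune, neural, muscle and epithelial markers, 3 of 8, 3 of 8, 1 of 7 and 4 of 10 genes had a region. Of 2 epithelial promoters 1 rose, that of Krt8 (log2 fold change 0.78, centred on its surroundings 0.54), and both summed to 175 to 198 normalised reads in active and 120 to 132 in inactive libraries. Of 3 neural promoters 2 fell, those of Map2 (-0.36) and Tubb3 (-0.48), and that of Stmn2 was too low to test. All 3 together summed to 256 to 348 normalised reads in active and 382 to 415 in inactive libraries. The immune promoter, of Cd14, fell (-0.34, centred 0.05) and the muscle one did not pass. The part of these marker shifts in the results below was not tested.

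Hox genes stand in 4 clusters, Hoxa to Hoxd, and the order of the genes along a cluster matches the order in which they act along the body axis, with low numbers toward the head and high numbers toward the tail and the tips of the limbs. Hox proteins bind DNA with the cofactors Pbx and Meis. Fibroblasts are known to keep part of the Hox pattern of the body site they came from. Polycomb complexes hold silent Hox genes closed, and Trithorax complexes keep active ones open. T-box proteins such as Tbx4 set up the hindlimb and the lung, Dlx and Msx proteins the jaw, skull and teeth, and Prrx proteins the mesenchyme of limb and face.

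Start-site windows of 5 genes are shown because their promoters carry the patterns described below: the most posterior genes of both Hox clusters with several regions, of which Hoxd13 fell and Hoxa13 did not pass, the cofactor promoter with the largest rise (Pbx4), the strongest T-box promoter (Tbx18) and a fibroblast patterning gene that fell (Prrx1). The windows are from RefSeq on build GRCm38.p6, run from 250 bases before to 50 bases after the start site and are written 5′ to 3′ on the gene's strand. The deposited regions are on mm39, so the windows were matched by symbol. They were used only where the start site kept its spacing to those of the genes within 2 Mb to within 500 bp. This leaves out Hoxd4, Tbx4 and Prrx2, whose RefSeq start sites lie 10049, 10343 and 10395 bp from the deposited ones on that measure. It also leaves out Msx2 (6517 bp), Hoxa9 (3688), Hoxa7 (3250), Dlx1 (1332), Meis2 (1202) and Pbx2 (995). Promoter and distal labels in this text follow the deposited start sites, so at these genes they could differ by RefSeq. Capitals mark each match, on either strand, to CCAAT (reverse ATTGG), to the GC box GGGCGG (reverse CCGCCC), to the homeodomain core TAATTA, to the joint Hox and Pbx site TGATNNAT, to the Meis site TGACAG or to the T-box site GGTGTGA.
Hoxa13, minus strand, chr6:52260831-52261130: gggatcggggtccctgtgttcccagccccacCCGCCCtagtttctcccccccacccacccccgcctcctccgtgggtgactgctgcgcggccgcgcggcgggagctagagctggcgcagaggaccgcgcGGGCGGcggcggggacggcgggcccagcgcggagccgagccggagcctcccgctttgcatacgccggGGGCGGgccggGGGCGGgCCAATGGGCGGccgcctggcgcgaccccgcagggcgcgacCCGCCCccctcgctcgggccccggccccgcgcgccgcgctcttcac
Hoxd13, plus strand, chr2:74667975-74668274: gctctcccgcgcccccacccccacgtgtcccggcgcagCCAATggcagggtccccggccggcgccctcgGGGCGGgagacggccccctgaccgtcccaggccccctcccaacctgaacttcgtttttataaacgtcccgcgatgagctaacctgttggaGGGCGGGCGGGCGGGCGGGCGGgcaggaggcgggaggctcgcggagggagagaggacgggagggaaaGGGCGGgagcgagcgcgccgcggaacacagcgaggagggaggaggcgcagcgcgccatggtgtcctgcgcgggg
Tbx18, minus strand, chr9:87731211-87731510: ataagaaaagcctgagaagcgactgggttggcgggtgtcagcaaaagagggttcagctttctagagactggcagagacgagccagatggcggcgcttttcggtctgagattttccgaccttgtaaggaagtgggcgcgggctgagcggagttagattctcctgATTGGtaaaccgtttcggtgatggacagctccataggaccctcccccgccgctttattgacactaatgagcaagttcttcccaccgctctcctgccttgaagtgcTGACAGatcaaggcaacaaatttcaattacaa
Pbx4, plus strand, chr8:69832374-69832673: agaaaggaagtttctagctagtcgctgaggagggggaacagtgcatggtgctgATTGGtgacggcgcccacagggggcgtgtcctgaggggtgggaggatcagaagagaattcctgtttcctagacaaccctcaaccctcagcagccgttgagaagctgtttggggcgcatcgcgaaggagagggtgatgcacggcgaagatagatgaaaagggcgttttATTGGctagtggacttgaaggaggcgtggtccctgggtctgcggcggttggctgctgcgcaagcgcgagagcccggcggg
Prrx1, minus strand, chr1:163313601-163313900: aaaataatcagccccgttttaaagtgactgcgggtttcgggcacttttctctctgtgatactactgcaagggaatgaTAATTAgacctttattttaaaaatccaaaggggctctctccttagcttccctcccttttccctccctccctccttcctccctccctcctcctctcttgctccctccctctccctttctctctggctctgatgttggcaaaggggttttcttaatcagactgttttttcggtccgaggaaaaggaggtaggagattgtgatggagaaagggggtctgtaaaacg

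The windows differ in base composition. Hoxa13 and Hoxd13 have 81% and 74.3% G and C with 45 and 37 CpG dinucleotides, while Prrx1 has 47.7% and 6 CpG. GC boxes match 6 times in the Hoxa13 and 7 times in the Hoxd13 window, 5 of the latter in a run of matches that overlap each other. In the Hoxa13 window 1 GC box lies next to the CCAAT match. The Tbx18 window holds 1 match to the Meis site, Pbx4 holds 2 reverse CCAAT matches and Prrx1 holds 1 homeodomain core. RefSeq windows were matched for 31 of the 43 symbols, 37 windows in all, of which 23 windows of 22 symbols kept their start site. These had a median of 60% G and C and 16 CpG against 52.7% and 7 over all 32851 windows. All windows include those of genes without an open region and were not checked for their start site, so the 2 sets are not alike. The GC box was in 13 of the 23 windows (56.5%) against 35.7% of all windows, and CCAAT in 12 (52.2%) against 37.4%. TAATTA was in 2 (8.7% against 5.29%), TGACAG in 4 (17.4% against 19.2%), and TGATNNAT and GGTGTGA in 0, against 8.85% and 3.98%. These are descriptions of short windows, and a match is not a bound site.

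All 67 regions had a mean of at least 10 normalised reads and were tested with limma as part of one fit over 51253 regions, on log2(value + 1), with Benjamini-Hochberg adjustment over all of them and a threshold of 0.05. Fold changes below are active over inactive, and log2 fold changes are on that scale with their SE, which understates changes of low regions. With the active ribozyme 18 of the 67 regions (26.9%) rose, 19 (28.4%) fell and 30 did not pass. Over all tested regions 30.9% rose and 29.2% fell, 60.1% in either direction, so the share of changed patterning regions was close to the background. Groups did not overlap in 39 regions (58.2%), with the active libraries above in 17 and below in 22, against 62.3% of all regions, 31.8% above and 30.5% below. In bulk cells, fewer cells with an open region and less opening in each cell cannot be told apart.

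Large changes were few. Changes of at least 2-fold that passed the threshold numbered 5 higher and 4 lower (13.4%), against 20.2% of all regions, and the median log2 fold change was -0.04 against -0.02. Among them were rises at Dlx6, Dlx5, Pbx4 and Tbx2 and falls at Tbx4, Prrx2 and Hoxd4, as the plot of changes by family shows. Of the 36 promoter regions 11 rose and 10 fell, against the 22.4% and 36.6% of all promoter regions given above. Of the 31 distal regions 7 rose and 9 fell, against 33.2% and 27.1%.

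**Figure D1:**
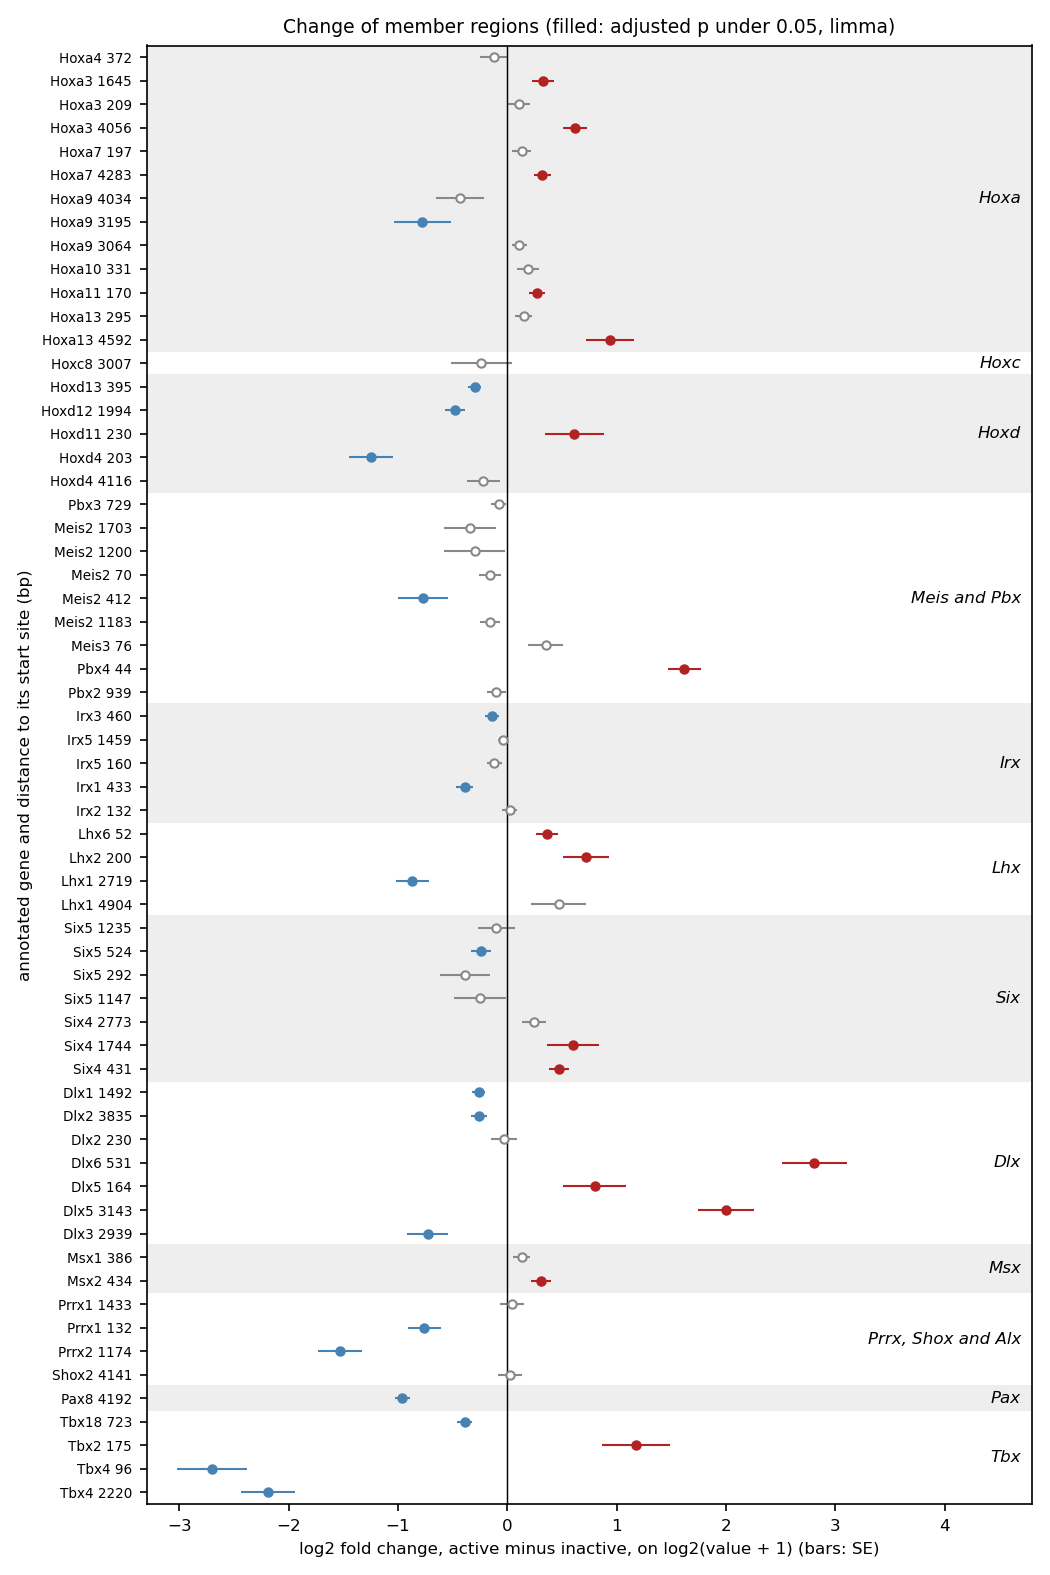
Log2 fold change of 62 of the 67 regions, active minus inactive, with SE bars, grouped by family, each labelled by its gene and its distance in bp to the start site. Filled red points rose and filled blue points fell (limma, adjusted p under 0.05), and open grey points did not pass. Dlx6 stands at 2.81 and the Tbx4 promoter at -2.70, while most other regions lie within 1 of 0.

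The surroundings of each gene were measured as well. Window medians and counts of other regions within 100 kb cover tested regions only, of which 30.9% rose and 29.2% fell over the whole table. For each region the median log2 fold change of all regions in its own 10 Mb window was taken, which ranged from -0.34 around Prrx2, Pbx3, Lhx2 and Lhx6 to 1.02 around Dlx5 and Dlx6. After each library's deviations were centred on the window, an alternative chosen after the data were seen and here called centred values, 14 of the 67 members were called higher and 19 called lower (26.7% and 24.3% of all tested regions were). Centred values are given where they change a call or a direction.

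**Figure D2:**
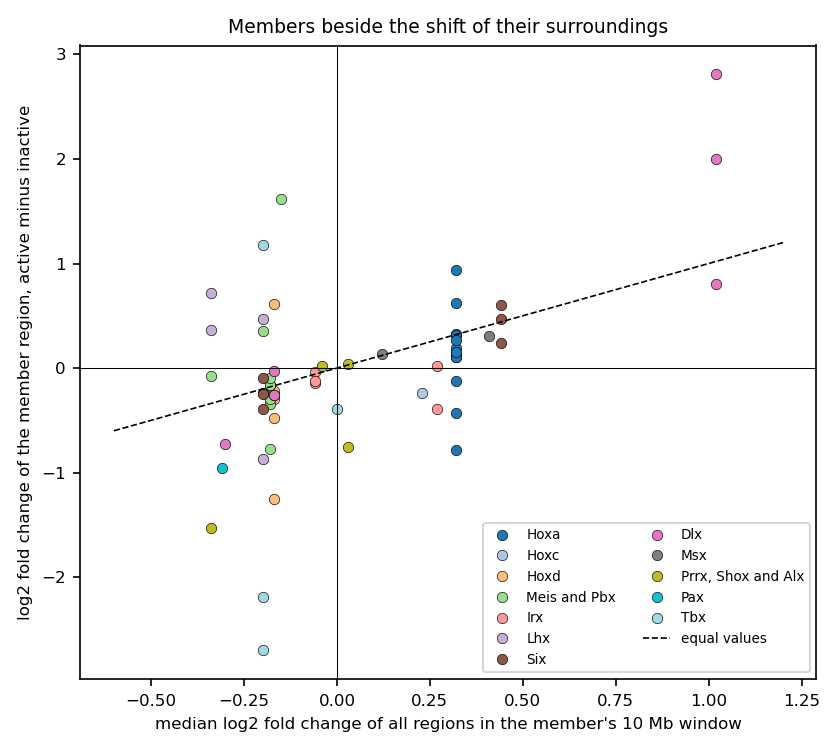
Each point is 1 of 62 of the 67 regions, with the median log2 fold change of all regions in its 10 Mb window on the x axis and its own log2 fold change on the y axis, colored by family. On the dashed line both are equal. The Hoxa points lie at a window value of 0.32 and spread from -0.78 to 0.94, and Pbx4 and Tbx4 lie far from the line.

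Of the 4 Hox clusters, Hoxa and Hoxd were open at several positions, Hoxc carried 1 region with a Hox symbol and Hoxb none. Over the stretch from the first to the last region with a Hox symbol, Hoxa (107 kb on chromosome 6) held 18 regions that covered 13.1% of the bases, or 16.8 regions per 100 kb. Hoxd (chromosome 2, 74497492 to 74546581 on mm39, 49.1 kb) held 5 regions that covered 7.24%, or 10.2 per 100 kb. Coordinates are those of the deposited table.

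To see what else was open, all regions between the regions of a flanking gene on each side were counted. Gene order was that of the RefSeq annotation of GRCm38.p6. The flanking genes are not always the nearest, since the homeobox gene Evx2 lies inside the Hoxd interval, so the intervals reach beyond the clusters. Between Skap2 and Hibadh, around Hoxa (627 kb), there were 30 regions, or 4.79 per 100 kb. Between Lnpk and Mtx2, around Hoxd (246 kb), there were 11, or 4.47 per 100 kb. Between Calcoco1 and Smug1, around Hoxc (439 kb), there were 10, or 2.28 per 100 kb. Between Snf8 and Snx11, around Hoxb (742 kb), there were 7, none with a gene symbol, 0.943 per 100 kb. The higher densities of the stretches above are not comparable with these, since those stretches end at open regions. In the Hoxb interval 1 region fell, 96616574 to 96617023 on chromosome 11, and 0 rose. It had 155, 150 and 158 normalised reads against 189, 195 and 183 (log2 fold change -0.29 ± 0.09 SE, limma adjusted p = 0.00615). The others there had inactive means of 18 to 232 normalised reads and did not pass.

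Within Hoxa the region at the Hoxa4 start site begins at 52168819. From 52188274 to 52242468 the cluster was open at short intervals, in order at Hoxa3, Hoxa7, Hoxa9, Hoxa10, Hoxa11 and Hoxa13. The regions annotated to Hoxa3 there lie beyond that of Hoxa4, next to Hoxa7. Between Hoxa11 and Hoxa13 lie 2 regions of an unnamed RNA gene, at 95.7 ± 3.51 and 158 ± 5.51 in active libraries and 96.7 ± 3.51 and 155 ± 16.5 in inactive ones (SD, n = 3), neither of which passed. No region carried the symbol Hoxa2, Hoxa5, Hoxa6 or Hottip.

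The Hoxa sum was higher with the active ribozyme before centring and close to level after it. The 16 regions summed to 3143, 3533 and 3148 normalised reads in active libraries and 2651, 2629 and 2787 in inactive ones, a log2 ratio of 0.28, and the groups did not overlap. Of the 16 regions 7 rose, 1 fell and 8 did not pass, where 30.9% of all tested regions rose and 29.2% fell. The median log2 fold change was 0.17, and the window of the cluster had a median of 0.32. Centred, the sum went to a log2 ratio of -0.04, a change of sign, with 4 regions higher and 4 lower. Of all tested regions 26.7% were higher and 24.3% lower when centred.

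In the middle of the cluster, Hoxa3 and Hoxa7 rose at regions distal by the deposited start sites, while their promoters did not pass. Hoxa3, a gene of the pharyngeal arches, rose 4056 bp from its start site, from 126 ± 22.6 to 192 ± 7.77 (SD, n = 3 each; log2 fold change 0.62, limma adjusted p = 3.91e-06), and 1645 bp from it (0.33). Hoxa7, a gene of the trunk, rose 4283 bp from its start site, from 202 ± 14.6 to 251 ± 3.79 (0.32). The promoters of Hoxa3, Hoxa7 and Hoxa4 had log2 fold changes of 0.11, 0.13 and -0.12, with overlapping libraries at all 3. Centred, the Hoxa3 region at 4056 bp remained higher (0.29), the other distal rises lost their calls with values of 0.00 each, and the Hoxa4 promoter was lower (-0.44).

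The posterior genes differed among themselves. At Hoxa9, a gene of the lumbar region and of blood precursors, the region 3195 bp from the start site (52204772 to 52204975) fell, with 18, 14 and 15 normalised reads against 23, 25 and 36 (log2 fold change -0.78 ± 0.26 SE, limma adjusted p = 0.00921). Its call was lost without inactive replicate 3 (-0.59). The narrow region beside it, 4034 bp from the start site, was at 21, 27 and 35 against 32, 42 and 37 and did not pass (-0.43, limma adjusted p = 0.0837). Centred, both were lower (-1.10 and -0.75), as was the wide Hoxa9 region of 2097 bp (-0.22). Before centring that region had 396, 445 and 403 against 360, 379 and 418 and did not pass (0.11).

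Hoxa10, Hoxa11 and Hoxa13 pattern the limb from its upper part to the digits, and the reproductive tract. The Hoxa11 promoter rose from 287 ± 17.4 to 346 ± 18.9 (SD, n = 3 each; log2 fold change 0.27, limma adjusted p = 0.00179) and lost the call when centred (-0.05). The Hoxa10 promoter, with 165, 171 and 159 normalised reads against 149, 149 and 135, and the Hoxa13 promoter, with 325, 406 and 335 against 340, 294 and 324, did not pass (0.19 and 0.15). The last region of the cluster, 4592 bp from the Hoxa13 start site (52242292 to 52242468), rose from 20, 20 and 18 to 33, 46 and 36 normalised reads (log2 fold change 0.94 ± 0.22 SE, limma adjusted p = 4.01e-04). It remained higher when centred (0.62).

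**Figure D3:**
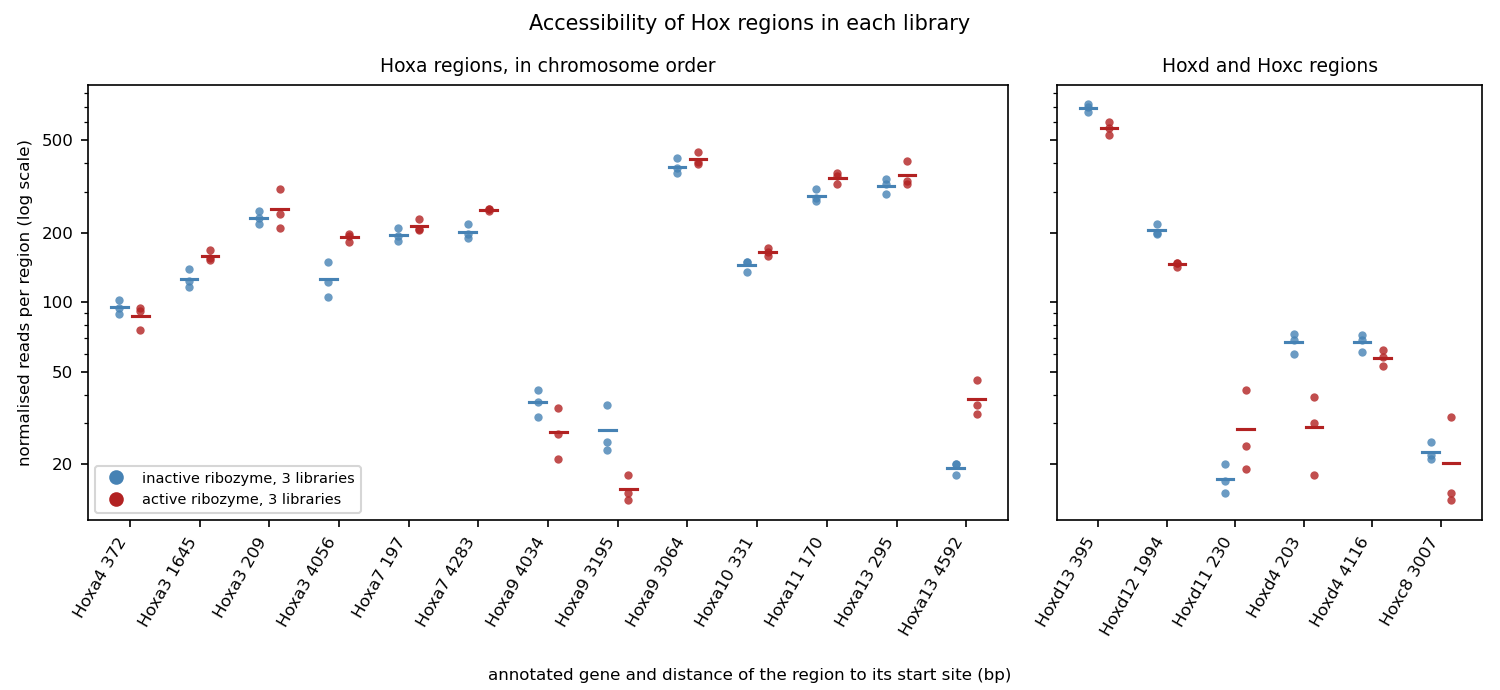
Normalised reads per region in each library, on a log scale, for 13 Hoxa regions in chromosome order and for the Hoxd and Hoxc regions, labelled by gene and distance in bp to the start site. Dots are the 3 libraries of a group and bars their means. Active libraries lie above the inactive ones at the distal Hoxa13 region and below them at Hoxd13, Hoxd12 and the Hoxd4 promoter.

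At Hoxd, 3 of 5 regions fell and 1 rose (29.2% and 30.9% of all tested regions did). The 5 regions summed to 791, 860 and 824 normalised reads in active libraries and 1062, 1020 and 1066 in inactive ones, a log2 ratio of -0.35 with no overlap. The window had a median of -0.17, and the same 4 calls held with centred values, though the planned centring of values on windows left 0 higher. The posterior end was the most open part. Hoxd13, which with Hoxa13 shapes the digits, had the strongest Hox region of the table at its promoter (74497492 to 74499025), with 528, 601 and 563 against 716, 663 and 699 (log2 fold change -0.30 ± 0.06 SE, limma adjusted p = 1.84e-05). Hoxd12, another gene of the distal limb, fell 1994 bp from its start site (74503125 to 74503600), with 142, 148 and 148 against 197, 200 and 217 (-0.48 ± 0.09 SE, limma adjusted p = 1.83e-05).

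The promoter of Hoxd4, an anterior gene of the hindbrain and neck, fell farthest. It had 39, 30 and 18 normalised reads in active libraries and 60, 73 and 69 in inactive ones (74542177 to 74542774), 2.32-fold lower (log2 fold change -1.25 ± 0.20 SE, limma adjusted p = 1.56e-06). The second Hoxd4 region, 4116 bp from the start site, was at 58, 62 and 53 against 72, 69 and 61 and did not pass (-0.22, limma adjusted p = 0.203).

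Hoxd11, a gene of forearm and lower leg, was called in the other direction but had few reads. Its promoter (74509852 to 74510409) had 24, 19 and 42 normalised reads against 17, 15 and 20, among the least accessible regions of the table per length, at percentile 2.94. The groups overlapped, limma gave an adjusted p of 0.0473 (log2 fold change 0.61 ± 0.27 SE), and the call was lost with active replicate 3 left out (0.30) and likewise for inactive replicates 1 (0.60) and 2 (0.52). It was also lost with quantile normalization (0.43), in limma without trend and with the planned centring of values on windows. No region lay between Hoxd11 and Hoxd4, from 74510409 to 74542177.

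Next to Hoxd13 lies Evx2, a homeobox gene of the same locus that is not in the 67 regions. It had 5 regions, 2 of which fell: 74493908 to 74494235 had 61, 46 and 56 normalised reads against 92, 108 and 102 (log2 fold change -0.88 ± 0.14 SE, limma adjusted p = 1.03e-06), and 74492026 to 74492402 went from 72.3 ± 5.51 to 50.0 ± 12.5 (-0.55). Between Lnpk and Mtx2, 6 of the 11 regions fell and 1 rose. Around Hoxa, between Skap2 and Hibadh, 16 of 30 rose and 2 fell (30.9% and 29.2% of all tested regions did). The largest rise there was in a region without a gene, 52512124 to 52512523, with 29, 30 and 34 against 2, 2 and 7 (log2 fold change 2.94 ± 0.39 SE, limma adjusted p = 1.91e-08).

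Hoxc was represented by a low region 3007 bp from the start site of Hoxc8, a gene of the thoracic segments (chromosome 15, 102895845 to 102896219). It had 15, 14 and 32 normalised reads against 21, 22 and 25 and did not pass (log2 fold change -0.24 ± 0.28 SE, limma adjusted p = 0.456). Active replicate 3 alone lay above the inactive libraries. Between the flanking genes of Hoxc 4 regions rose and 1 fell. The fall was in the region with the most reads in the inactive libraries, 103036470 to 103037380, with 164, 164 and 181 against 263, 285 and 280 (-0.70 ± 0.08 SE, limma adjusted p = 2.23e-09). No region carried the symbol Hotair.

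Among the Hox cofactors of the TALE homeodomain group, Pbx4 rose. Pbx4, known from the testis, had 125, 99 and 128 against 39, 32 and 41 at its promoter on chromosome 8 (70284913 to 70285457) and rose 3.14-fold (log2 fold change 1.62 ± 0.15 SE, limma adjusted p = 3.25e-12). Every active library lay above every inactive one.

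The Pbx4 rise went against its surroundings. The 10 Mb window had a median of -0.15, and of 15 other regions within 100 kb 3 rose and 6 fell. The Pbx2 promoter was at 182 ± 7.23 in active and 196 ± 21.4 in inactive libraries (SD, n = 3) and did not pass (-0.10). The Pbx3 promoter had 377, 396 and 369 normalised reads against 406, 368 and 436 and did not pass (-0.08). Centred, Pbx3 was higher (0.25, limma adjusted p = 0.00203).

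Meis2, a partner of Hox and Pbx proteins in limb, heart and palate, had 5 regions within a short stretch of chromosome 2 (115894485 to 115897957), all with negative log2 fold changes, of which 2 went to 0.00 and 0.01 with centred values. The region with the most reads, 1183 bp from the start site, had 196, 191 and 156 normalised reads against 202, 200 and 204 (-0.16, limma adjusted p = 0.12). The promoter region 412 bp from the start site fell, with 16, 23 and 26 against 38, 46 and 29 (log2 fold change -0.77 ± 0.23 SE, limma adjusted p = 0.004), and this call was lost without inactive replicate 2 (-0.62). The other 3 ranged from -0.34 to -0.16 and did not pass. Among them was a stronger promoter region, 70 bp from the start site, with 137, 154 and 130 against 165, 160 and 144 (-0.16, limma adjusted p = 0.183). The promoter of Meis3, a relative active in the hindbrain, was at 58, 83 and 64 against 45, 54 and 61 (0.35, limma adjusted p = 0.0606) and was higher when centred (0.53).

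The 5 regions of the Iroquois genes ranked from percentile 59.1 to 98.2 of the table in reads per length. Of these 2 fell and 0 rose, against 29.2% and 30.9% of all tested regions. Irx1 and Irx2 share 1 genomic cluster and Irx3 and Irx5 another, and they act in heart, limb and neural patterning. The region 1459 bp from the Irx5 start site (chromosome 8, 93082304 to 93083283) had 614, 629 and 631 normalised reads against 650, 626 and 657 and did not pass (log2 fold change -0.04, limma adjusted p = 0.481). It ranked highest of them per length. Irx1 fell at its promoter (chromosome 13, 72110587 to 72112230), with 213, 246 and 246 against 315, 288 and 321 (-0.39 ± 0.08 SE, limma adjusted p = 4.8e-05), although its window had a median of 0.27.

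The promoter of Irx3 was at 460 ± 21.5 in active libraries and 506 ± 9.54 in inactive ones (SD, n = 3; log2 fold change -0.14, limma adjusted p = 0.0434). Its call was lost without active replicate 1 (-0.10) or any 1 inactive replicate (-0.12 to -0.15), with quantile normalization, with the replicate block, in limma without trend and when centred (-0.10). The promoters of Irx5 (-0.12) and Irx2 (0.02) did not pass. All 3 other regions within 100 kb of Irx2 rose, with a median of 2.21, while the Irx2 promoter itself was at 341, 391 and 395 against 359, 356 and 395. Centred, it was lower (-0.28).

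The LIM homeobox genes Lhx6 and Lhx2 rose and Lhx1 fell. Lhx6, a gene of interneurons and teeth, had 158, 157 and 159 normalised reads at its promoter (chromosome 2, 35995082 to 35995861) against 123, 119 and 127 (log2 fold change 0.36 ± 0.10 SE, limma adjusted p = 0.00218). Lhx2, needed for eye and forebrain, had 48, 39 and 36 against 22, 25 and 26 at its promoter (38229245 to 38229740; 0.72 ± 0.21 SE, limma adjusted p = 0.00286). Both lay in windows with a median of -0.34, and of 5 other tested regions within 100 kb of each, 0 rose. Lhx1, a gene of kidney and head, fell 2719 bp from its start site (chromosome 11, 84413461 to 84413822), with 45, 49 and 43 against 83, 93 and 77 (-0.87 ± 0.15 SE, limma adjusted p = 3.75e-06). The region 4904 bp from its start site had 28, 23 and 30 against 16, 19 and 23, did not pass (0.47, limma adjusted p = 0.0976) and was higher when centred (0.66).

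The sine oculis proteins work with Eya cofactors in muscle, kidney and sense organs. Six4 lies on chromosome 12, in a window with a median of 0.44. The Six4 promoter rose from 165 ± 9.61 to 229 ± 21.5 (SD, n = 3 each; log2 fold change 0.47 ± 0.09 SE, limma adjusted p = 2.49e-05). The Six4 region at 1744 bp (73158386 to 73158585) had 32, 28 and 26 normalised reads against 19, 15 and 22 (0.60 ± 0.24 SE, limma adjusted p = 0.0308), and lost its call with active replicate 1 left out (0.52) and likewise for inactive replicates 1 (0.62) and 2 (0.46). Centred, neither passed (0.00 and 0.14). The third Six4 region was at 0.24 and did not pass.

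Six5, which neighbours Dmpk at the myotonic dystrophy locus, had 4 regions in a row on chromosome 7. The strongest, 524 bp from the start site (18827581 to 18828408), had 196, 191 and 167 normalised reads against 238, 217 and 201 (log2 fold change -0.24 ± 0.09 SE, limma adjusted p = 0.019). That call was lost without active replicate 3 (-0.17) or inactive replicate 1 (-0.18) and when centred (-0.06). The other 3 Six5 regions ranged from -0.39 to -0.10 and did not pass.

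Dlx genes come in linked pairs. Regions of Dlx5 and Dlx6 rose and distal regions of Dlx1 and Dlx2 fell. The Dlx5 promoter and both falls lost their calls with centred values, while the planned centrings given below kept both falls. Dlx5 and Dlx6, which pattern the lower jaw and drive bone formation, stood on chromosome 6. The Dlx6 promoter (6862669 to 6862937) had 34, 53 and 44 normalised reads in active libraries and 6, 6 and 4 in inactive ones, and rose 8.19-fold (log2 fold change 2.81 ± 0.30 SE, limma adjusted p = 1.35e-10). The region 3143 bp from the Dlx5 start site (6885067 to 6885389) had 48, 35 and 45 against 9, 13 and 8 and rose 4.27-fold (2.00 ± 0.26 SE, limma adjusted p = 1.65e-08). Both regions had few reads in every inactive library, and both calls held with centred values (1.80 and 0.99).

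The Dlx5 promoter had 16, 41 and 23 normalised reads against 13, 17 and 12, with overlapping groups (log2 fold change 0.80 ± 0.29 SE, limma adjusted p = 0.0183). Its call was lost with active replicate 2 left out (0.44) and likewise for inactive replicates 1 (0.75) and 3 (0.70), and centred the value was -0.22. All 11 other regions within 100 kb rose, with a median of 1.14, among them the promoter of Sdhaf3, an assembly factor of the respiratory chain, with 374, 364 and 343 against 169, 160 and 202. The window had a median of 1.02, the highest among the members.

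The distal regions of Dlx1 and Dlx2, which act in the upper jaw and in forebrain interneurons, fell slightly. Per length they stood at 263 and 489 normalised reads per kb in active libraries, where the Dlx5 and Dlx6 regions had 69.8 to 162. On chromosome 2, the region 1492 bp from the Dlx1 start site (71359240 to 71360657) had 356, 392 and 371 normalised reads against 449, 436 and 458 (log2 fold change -0.26 ± 0.06 SE, limma adjusted p = 5.35e-04). The region 3835 bp from the Dlx2 start site went from 419 ± 13.9 to 351 ± 18.5 (SD, n = 3 each; -0.26), and the Dlx2 promoter was at 107, 104 and 109 against 113, 97 and 118 (-0.03, limma adjusted p = 0.833). Of 10 other regions within 100 kb, 7 fell and 0 rose. Centred, the Dlx1 and Dlx2 calls were lost (-0.13 and -0.12). Both held under the planned centring of values on windows (-0.30 and -0.29) or on chromosomes (-0.22 each). Those centrings moved the median of all regions to -0.12 and -0.13.

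The log2 ratio of the summed Dlx5 and Dlx6 regions to the summed Dlx1 and Dlx2 regions, a quantity chosen after the values were seen, was -3.05, -2.68 and -2.92 in active libraries and -5.14, -4.74 and -5.35 in inactive ones. Dlx3, a gene of skin, hair and placenta, fell 2939 bp from its start site (chromosome 11, 95007771 to 95008240), with 46, 39 and 26 against 60, 71 and 52 (-0.73 ± 0.19 SE, limma adjusted p = 8.91e-04). With centred values it did not pass (-0.42, limma adjusted p = 0.0538), while each planned centring of values left 3 lower Dlx calls. Of 17 other regions within 100 kb of Dlx3, 12 fell and 1 rose.

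The Msx genes, which respond to BMP signals in teeth and skull, were open at both promoters. Msx2 on chromosome 13 (53626327 to 53627024) had 267, 297 and 230 normalised reads against 216, 197 and 224 and rose (log2 fold change 0.31 ± 0.09 SE, limma adjusted p = 0.00221). Its window had a median of 0.41, 11 of 16 other regions within 100 kb rose and 0 fell, and the centred value was -0.13 without a call. Msx1 on chromosome 5 (37980818 to 37982264) had 282, 325 and 304 against 270, 259 and 301 and did not pass (0.13, limma adjusted p = 0.13).

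Both Prrx genes fell at 1 region each. Prrx1 and Prrx2 are paired-related homeobox genes of limb and facial mesenchyme, and Prrx1 also marks fibroblasts. Prrx2, on chromosome 2 1174 bp from its start site (30723497 to 30724123), had 16, 25 and 25 normalised reads against 54, 71 and 69, 2.94-fold lower (log2 fold change -1.53 ± 0.20 SE, limma adjusted p = 1.88e-08). The Prrx1 promoter on chromosome 1 (163140881 to 163141412) had 46, 69 and 48 against 95, 93 and 86 (-0.76 ± 0.15 SE, limma adjusted p = 3.36e-05). Groups did not overlap at either region, and both calls held with centred values (-1.20 and -0.83).

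A second Prrx1 region, 1433 bp from the start site, had more reads and overlapping groups, with 142, 143 and 131 normalised reads against 141, 117 and 149 (log2 fold change 0.04 ± 0.11 SE, limma adjusted p = 0.776). Of 15 other regions within 100 kb of Prrx1 10 fell and 0 rose, in a window with a median of 0.03. Shox2, a gene of limb and cardiac pacemaker, was at 120 ± 12.5 and 118 ± 9.61 in active and inactive libraries 4141 bp from its start site (SD, n = 3; 0.02, limma adjusted p = 0.901). Alx, Pitx and Tlx symbols had no region.

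Pax8, the paired box gene of thyroid and kidney, was the only Pax gene with a region, 4192 bp from its start site on chromosome 2 (24369215 to 24370391). It had 268, 265 and 281 normalised reads in active libraries and 523, 558 and 501 in inactive ones, 1.94-fold lower (log2 fold change -0.96 ± 0.07 SE, limma adjusted p = 9.87e-16). This was the smallest adjusted p among the 67 regions. Within 100 kb 10 of 14 other regions fell and 0 rose, with a median of -0.80. Centred on its window, Pax8 remained lower (-0.68).

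The T-box genes Tbx2 and Tbx4 lie next to each other on chromosome 11 and went in opposite directions. The Tbx4 promoter (85777090 to 85777598) had 5, 4 and 5 normalised reads in active libraries and 34, 42 and 32 in inactive ones, 7.71-fold lower (log2 fold change -2.70 ± 0.32 SE, limma adjusted p = 1.48e-09). The region 2220 bp from the Tbx4 start site (85779090 to 85779845) had 12, 9 and 9 against 47, 45 and 55, 4.9-fold lower (-2.19 ± 0.25 SE, limma adjusted p = 4.79e-10). Every active library had few reads at both. Over all libraries both were among the least accessible regions of the table per length, at percentiles 2.66 and 2.42, and the Tbx2 promoter was at 7.64. Tbx2, a repressor that acts in limb, heart and cell cycle control, had 28, 18 and 26 against 6, 13 and 12 at its promoter (85723391 to 85723713) and rose 2.32-fold (1.18 ± 0.31 SE, limma adjusted p = 0.00136).

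Of the 8 other regions within 100 kb of Tbx2 and Tbx4, 6 fell and 0 rose. The one nearest to Tbx4 that fell, 85785547 to 85786274, had 23, 27 and 27 normalised reads against 63, 90 and 71 (log2 fold change -1.49 ± 0.18 SE, limma adjusted p = 2.96e-09), and a region at 85817339 to 85817742 had 4, 5 and 2 against 26, 25 and 27 (-2.59). The log2 ratio of Tbx2 to the summed Tbx4 regions, also chosen after the values were seen, was 0.72, 0.47 and 0.89 in active libraries and -3.75, -2.74 and -2.86 in inactive ones. The window had a median of -0.20, and centring ended none of the 3 calls.

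**Figure D4:**
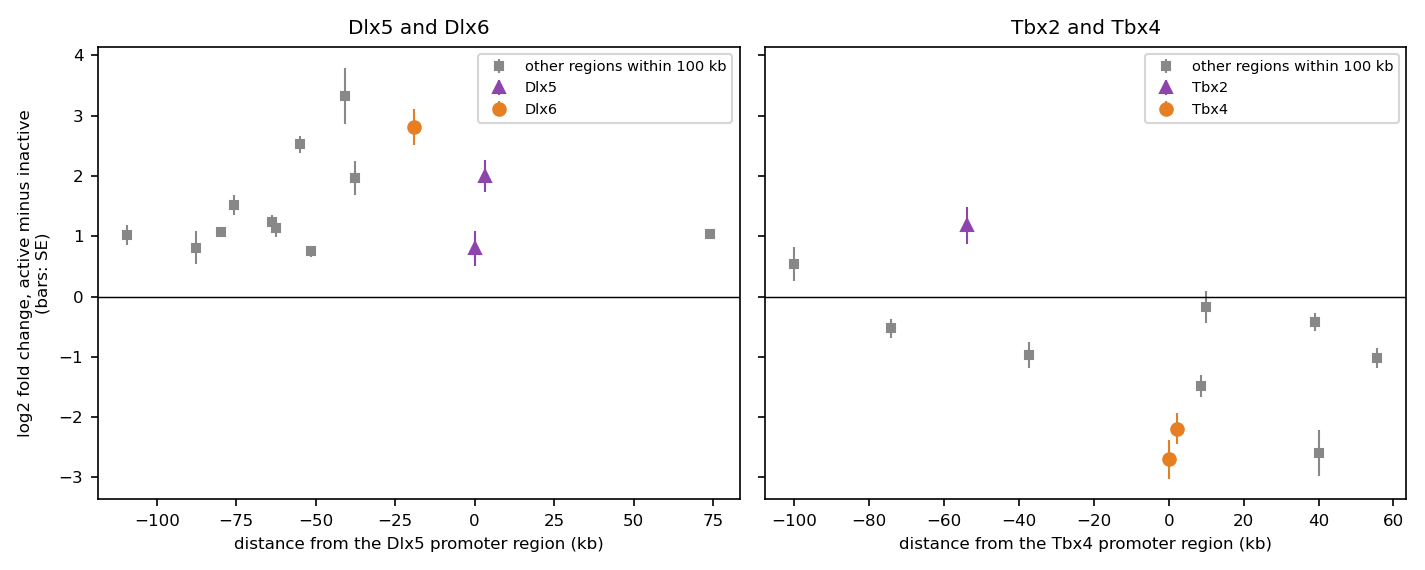
Log2 fold change, active minus inactive, with SE bars, against the distance in kb from the Dlx5 (left) or Tbx4 (right) promoter region. Members and all other tested regions within 100 kb are shown. All regions around Dlx5 and Dlx6 lie above 0, by 0.75 to 3.33. Around Tbx2 and Tbx4 the Tbx2 promoter at 1.18 stands above regions that mostly lie below 0.

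Tbx18, a gene of epicardium and sinus node, had the strongest T-box region, a promoter of 2003 bp on chromosome 9 (87611589 to 87613591). It had 293, 253 and 279 normalised reads against 378, 351 and 350 (log2 fold change -0.39 ± 0.07 SE, limma adjusted p = 1.75e-05). All active libraries lay below the inactive ones. The window had a median of 0.00, and no other tested region lay within 100 kb.

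Sums over the regions of a family weigh strong regions most and carry no test. The 67 regions together summed to 11362 ± 371 normalised reads in active libraries and 11717 ± 170 in inactive ones (SD, n = 3 each), or -0.04 as a log2 ratio. This ratio was -0.11 for Meis and Pbx, -0.11 for Irx, 0.11 for Lhx, 0.09 for the sine oculis genes, -0.12 for Dlx, 0.22 for Msx, -0.29 for Prrx with Shox and -0.54 for Tbx. In the sine oculis family the median of the single regions (-0.06) had the opposite sign to the sum. Centred, the sums of the sine oculis genes (-0.10) and Msx (-0.05) changed sign as well, and that of Meis and Pbx went to 0.00.

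Regulators and partners of these genes are given for promoter regions from lists drawn up by function. Of 24 Polycomb promoters 5 rose and 12 fell, with a median log2 fold change of -0.16 against -0.10 over all promoter regions, and the background shares of 22.4% and 36.6% apply. Eed, a core subunit, fell from 319 ± 23.1 to 220 ± 23.9 (-0.54), and Ezh2, the methyltransferase, rose from 494 ± 29.5 to 668 ± 26.1 (SD, n = 3 each; 0.44, limma adjusted p = 2.18e-08). Centred, Eed remained lower (-0.44) and Ezh2 lost its call (-0.03). Of 11 promoters of Trithorax genes and Ctcf 3 rose and 6 fell, among them Kmt2a, the methyltransferase that keeps Hox genes active (-0.64, centred -0.04) and Dot1l, a methyltransferase of transcribed genes (-0.62, centred -0.47).

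Of 6 promoters of the retinoic acid pathway, which switches on anterior Hox genes, 1 rose and 2 fell. The rise was at Rarb, a retinoic acid receptor, with 69, 58 and 67 normalised reads against 33, 33 and 26 (log2 fold change 1.06, limma adjusted p = 2.31e-06), and the Cdx genes had no region. Among 12 promoters of partner proteins 2 rose and 5 fell, and Twist2, a factor of mesenchyme, fell farthest, with 81, 80 and 63 against 245, 231 and 210 (-1.61, limma adjusted p = 7.21e-16). Of 8 promoters of other homeobox genes 1 rose and 4 fell, led by Onecut2, a gene of liver and neurons, with 22, 18 and 14 against 69, 56 and 61 (-1.75, limma adjusted p = 1.8e-09). With centred values the promoters higher and lower numbered 0 and 4 for Polycomb, 0 and 2 for Trithorax and Ctcf, 1 and 2 for retinoic acid, 1 and 3 for partners and 0 and 2 for other homeobox genes. Twist2 is also among the fibroblast markers, of whose promoters 0 were higher and 11 lower when centred.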

How the data were processed

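Of 67 member regions in 6 ATAC-seq libraries (3 per group), the deposited values are a score. By their pattern, the authors scaled the read total of a region by a library's size factor, then rounded it. No count model was therefore used. Build mm39 and the tools DESeq2 1.36.0, featureCounts, Picard 3.1.1, STAR 2.7.11a and Trimmomatic 0.39 are named per the submitters' processing notes. Not given in the sources used here are the peak caller, the merging of peaks and any Tn5 shift. A region's gene and its distance to the start site, up to 5982 bp, are other annotations by the authors, per the file headers.

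Under R 4.3.3, limma 3.58.1 (trend and robust settings, no covariate) was fitted to log2(value + 1) over 51253 regions with a mean of at least 10. Another 1704 regions were not tested. The fit was tested on simulated data. Members and lists were chosen with earlier results of these data known. Results of 5 member regions are not reported here: they enter the fits, counts and sums only. In each family of the other 62, libraries are given for the region with the highest mean and the called regions with the largest rise and fall, and at Hoxd for every called region. For other lists at most 4 called promoters with the largest change were eligible. Flanking regions named singly (beside Hoxa, Hoxc, Evx2, Dlx5 and Tbx4) were chosen after their values were seen. Sums over regions carry no p-value: the exact permutation test of 3 against 3 libraries cannot go below 0.1. Same-numbered libraries did not deviate together over the tested regions (correlations of 0.00137, -0.006 and -0.0162), so replicate numbers were treated as names. A weak pairing could go unseen there, since many regions have few reads. Alternatives varied the pseudocount, filter, scaling, regional centring, trend and block, and left out each library. Tables and figures used Python 3.11.15, pandas 2.3.3 and matplotlib 3.10.9.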

Additional observations from a re-analysis of the deposited data

How the results depend on the processing

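Of the 37 called regions 21 kept their call and direction under every alternative that tested them, 9 higher and 12 lower; Tbx2 was not tested at a mean of at least 20, which takes the higher Tbx calls from 1 to 0. Pseudocount 5, no filter and equal column totals changed no call of a region. The cause of the changes listed here was not tested. Low values of active replicates 1 and 2 limit what small regions can show, and all p-values rest on 3 libraries per group.

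Replicate numbers showed no pairing in the correlations, where a weak one could go unseen. With the replicate number as a block 18 regions were higher and 18 lower, and the Irx3 call alone was lost (-0.14), which takes lower Irx calls from 2 to 1.

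Leaving out each library in turn took the calls, lowest to highest, to 0 to 2 for lower Hoxa, 0 to 1 for higher Hoxd, 1 to 2 for higher and 1 to 3 for lower Meis and Pbx, 1 to 2 for lower Irx, 1 to 3 for higher and 0 to 1 for lower sine oculis, and 1 to 2 for higher Msx. It ended 7 calls, all named with their libraries above, and gave 8 regions a call. The Hoxc sum ranged from -0.64 to 0.05. Of the regions described above, those without a call that changed sign were, by start coordinate and range, Prrx1 163139430 (-0.06 to 0.11), Dlx2 71376511 (-0.11 to 0.03), Meis2 115894485 (-0.55 to 0.02), Shox2 66892900 (-0.05 to 0.10), Hoxa3 52189660 (-0.05 to 0.23), Six5 18827131 (-0.17 to 0.01) and 18829471 (-0.54 to 0.09) and Irx2 72776175 (-0.02 to 0.09).

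Quantile normalization ended the calls at Hoxd11, the Dlx5 promoter, Irx3 and Six4 73158386 and added 6. It took lower Hoxa calls to 2, higher Hoxd to 0, lower Irx to 1, higher sine oculis to 1, lower sine oculis to 2 and higher Msx to 2, and reversed Shox2 (-0.01). Limma without trend ended those at Hoxd11, the Dlx5 promoter, Hoxa11, Six5 18827581, Irx3 and Msx2, so that higher Hoxd calls went to 0, lower Irx to 1 and higher Msx to 0.

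Regional centring changed most. The planned centring of values on windows or chromosomes moved the median of all regions from -0.02 to -0.12 and -0.13, which the centring of deviations, chosen after the data were seen, did not (-0.02). On chromosomes 30 members were lower. For centring on windows, on chromosomes and of deviations, in this order, higher Hoxa calls were 4, 3 and 4, lower Hoxa 4, 8 and 4, higher Meis and Pbx 3, 2 and 3, higher sine oculis 0, 0 and 0, and higher Msx 0, 0 and 0. On windows higher Hoxd calls were 0, on both planned scales lower sine oculis calls were 2 and lower Msx 1, on chromosomes lower Hoxc 1, and with deviations lower Dlx 0. Sums that changed sign were those of the sine oculis genes (-0.14, -0.23 and -0.10), Msx (-0.17, -0.21 and -0.05), Hoxa (-0.12 on chromosomes, -0.04 with deviations) and Meis and Pbx (0.00 with deviations). The sine oculis sum also differed in sign from the median of its regions (-0.06).

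Of the same regions, the sign changed under all 3 centrings, in the same order, at Prrx1 163139430 (-0.10, -0.18, -0.03), Hoxa3 52189660 (-0.17, -0.29, -0.22), Hoxa7 52198695 (-0.15, -0.27, -0.19), Hoxa9 52210085 (-0.17, -0.29, -0.22), Hoxa10 (-0.09, -0.21, -0.13), Hoxa11 (-0.01, -0.13, -0.05), Hoxa13 52236659 (-0.13, -0.25, -0.17), Six4 73157137 (-0.32, -0.35, -0.23), Six4 73159257 (-0.09, -0.12, 0.00), Msx2 (-0.34, -0.17, -0.13) and Irx2 (-0.06, -0.46, -0.28). On windows and with deviations did so Pbx3 (0.20, 0.25), the Dlx5 promoter (-0.20, -0.22) and Six5 18827131 (0.11, 0.08), and on windows and chromosomes Shox2 (-0.13, -0.08) and Msx1 (-0.03, -0.25). On chromosomes and with deviations did so Dlx2 71376511 (0.01, 0.10) and Hoxa7 52202762 (-0.08, 0.00), on chromosomes Hoxa3 52188274 (-0.07), and with deviations Meis2 115896052 (0.01) and Pbx2 (0.06).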
